A study of Rattus norvegicus with 9 samples.

Results

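The genes of the cytosolic ribosomal proteins were followed through immobilization stress in the rat adrenal medulla, the inner part of the adrenal gland whose chromaffin cells release adrenaline and noradrenaline. A gene was taken as a member when a probe set of the array was annotated to that gene alone and its symbol was a large subunit (Rpl), small subunit (Rps), Rpsa or Rplp name, with the S6 kinases left out. The rule found 44 genes, 30 of the large and 14 of the small subunit, among 14217 genes annotated in this way. Where a gene had several such probe sets, the one with the highest mean level stood for it. The rule used the levels only for that choice, and mean levels over all arrays also set which genes were tested. Differences between groups did not enter the rule, so they could be tested. The members were, however, chosen with earlier results of these data known.

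RNA from both adrenal medullae of adult rats of 280 to 320 g was hybridized to 9 Affymetrix oligonucleotide arrays in 3 groups of 3. The Control group was not exposed to stress. The 1XIMO group was immobilized once for 2 h, and the 6XIMO group for 2 h daily on 6 days; tissue was taken after the last session. No strain, sex or genotype is named for any group. Some label fields name mouse and brain, whereas the organism is given as Rattus norvegicus, which was followed here; the enzymes of catecholamine synthesis that define chromaffin cells had mean levels of 16.41 for Th, 16.70 for Dbh and 16.13 for Pnmt, and markers of the adrenal cortex had levels as high, 16.71 for Star and 16.48 for Cyp11a1, in the same samples. Nothing in the labels ties an array to an animal of its own, and the p-values therefore cover only the spread among the 9 samples, which may be technical.

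A cytosolic ribosome is built from a small subunit, which reads the messenger RNA, and a large subunit, which joins amino acids. Each ribosomal protein is needed in about the same amount as the others, and the messenger RNAs of these proteins are among the most abundant of a cell. They begin with an oligopyrimidine tract, a C followed by a run of C and T, through which the mTOR pathway controls their translation, and that control can change protein output without changing the RNA level that an array measures.

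The start sites are shown first because this tract is the sequence feature the genes are known to share. Annotated starts in RefSeq (GRCr8 build) were matched for 37 of the 44 members by gene ID. A tract, here C followed by 4 or more letters that are each C or T on the gene's strand, began at the annotated first base in 11 of 37 members (29.7%), against 2.63% of all 33469 annotated starts. The windows below run from 15 bases before the start to the 15th base of the transcript, with the tract at the start in capitals. On the deposited scale Rpl19, Rps3a, Rps15 and Rpl35a rose after 6 sessions, and Rplp0 and Rpl39 did not pass the test. Rps23 rose on that scale without a tract at its annotated first base, but a tract, left in small letters below, begins at the very next base. Quantile normalization gives every array the same distribution of values, and after it none of the genes shown here passed.
Rpl19, chr10:83519049-83519078, plus strand: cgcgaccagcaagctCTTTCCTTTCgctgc
Rps3a, chr2:173827028-173827057, minus strand: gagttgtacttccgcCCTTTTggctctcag
Rps15, chr7:10068101-10068130, minus strand: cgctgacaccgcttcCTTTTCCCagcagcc
Rpl35a, chr11:81235007-81235036, minus strand: gcgggtcttgccttcCTCTTTCCgccatct
Rplp0, chr12:46718376-46718405, minus strand: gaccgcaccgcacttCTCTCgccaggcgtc
Rpl39, chrX:121195882-121195911, minus strand: tcttctaatcgcgttCTTCCggcctgtcct
Rps23, chr2:23814502-23814531, plus strand: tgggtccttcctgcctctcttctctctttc

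A tract that began within 10 bases of the annotated start on either side was found in 25 of 37 members (67.6%), against 28.9% of all starts. The same letters on the other strand were found in 6 of 37 members (16.2%), against 34.8% of all starts. In the whole 300-base window, from 250 bases before to 50 after the start and on both strands, the motif CCGGAAG was present in 8 of 37 members (21.6%) and in 8.75% of all windows. The motif CTTCCTTT, which can overlap a tract, was present in 9 of 37 members (24.3%) and in 3.38% of all windows. Of the tested members, 6 of the 11 with a tract at the annotated first base rose after 6 sessions. Of the 25 without a tract at that base, 18 did. The median log2 fold changes were 1.04 and 1.29, and this difference was not tested. Members without a tract at that base can carry one close by, as Rps23 does. These matches describe the annotated windows and were not measured on the arrays.

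The deposited intensities had been scaled so that the trimmed mean of each array lay between 2500.57 and 2501.03, and the 3 6XIMO arrays still stood apart from the other 6. Their ratio of 3′ to 5′ actin signal, which rises as RNA is degraded or incompletely copied, was 231, 6.11 and 8.87, against 1.45 to 2.15 in the Control and 1.57 to 1.99 in the 1XIMO arrays. The 18 spike-in probe sets, which read RNA added in the laboratory, were 2.85 higher on the log2 scale in 6XIMO than in Control, and 1.75 higher without 6XIMO replicate 1. Over all 11287 genes tested, the median log2 fold change was −0.13 in 1XIMO and −0.23 in 6XIMO against Control. 6XIMO replicate 1 stood furthest apart, and the counts and the named genes of 6XIMO against Control are given with and without it.

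Levels are given as log2(intensity + 16). Of the 44 members, 38 lay at mean levels from 15.22 to 16.69, and 6 lay under a limit of 14 that was set after the values were seen. Those 6 were Rpl39 at 11.36, Rps27l at 10.55, Rps13 at 9.52, Rpl28 at 8.60, Rpl30 at 7.75 and Rpl3l at 6.63. The dimmest 30% of probe sets were not tested, which set a limit at 8.51. Rpl28, just above it, was tested, whereas Rpl30 and Rpl3l were not, so that 42 members entered the test. A probe set's brightness depends on its probes as well as on its transcript, and the order of these levels is not an order of abundance.

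**Figure D1:**
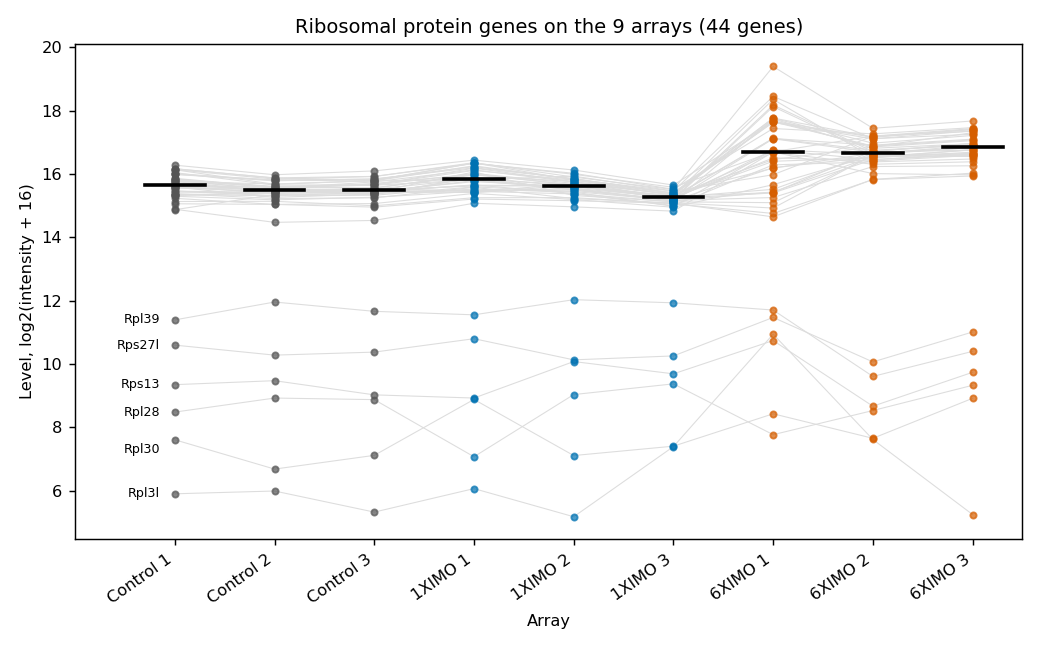
Level of each of the 44 ribosomal protein genes, as log2(intensity + 16), on each of the 9 arrays. Points are genes, grey lines join a gene across arrays, and black bars mark the median of the 38 bright members, which lay between 15.26 and 15.83 on the Control and 1XIMO arrays and between 16.66 and 16.84 on the 6XIMO arrays on the deposited scale; this difference is absent after quantile normalization, where the median change of the tested members was −0.027.

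For Rpl28, Rpl30 and Rps13, the low level belonged to the probe set annotated to the gene alone. Probe sets that carry the same symbol together with others, which the rule leaves out, had levels of 16.10 for Rpl28, 15.80 for Rpl30 and 15.58 for Rps13. The values of these members therefore rest on a dim probe set each. Rps27l, a paralog of Rps27 induced by p53, and Rpl3l, the striated muscle paralog of Rpl3, had no brighter probe set of this kind. Rpl3l was at 5.90, 5.99 and 5.32 on the Control arrays, at 6.06, 5.18 and 7.39 on the 1XIMO arrays and at 10.94, 7.62 and 5.25 on the 6XIMO arrays. Its groups overlapped, and the spread within 6XIMO was wider than the difference between groups.

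The first comparison asked what a single session does to these transcripts. After it, no ribosomal protein gene rose or fell. The median log2 fold change of the 42 tested members against Control was 0.01, with 23 positive and 19 negative values. None of them passed an unadjusted p of 0.05 in limma's test, and the adjusted p of the 38 bright members ran from 0.588 to 0.998. Over all genes tested, 4.2% rose and 5.31% fell in this comparison at an adjusted p under 0.05, so that the single session did change other transcripts.

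The changes of the bright members lay within a narrow band, from −0.09 for Rps3, a small subunit protein at the entry of the messenger RNA channel, to 0.32 for Rpl21 of the large subunit. Rpl21 was at 14.89, 14.47 and 14.53 on the Control arrays and at 15.08, 14.96 and 14.83 on the 1XIMO arrays, so that the groups overlapped. Only Rpl24, whose protein forms a bridge to the small subunit, had groups that did not overlap. It was at 15.06, 15.04 and 14.95 in Control and at 15.21, 15.16 and 15.07 in 1XIMO, a log2 fold change of 0.13. Over all genes tested, 13.4% lay above and 29.5% below the Control arrays without overlap, so that 1 member of 42 is fewer than the background. The standard error of a member's change had a median of 0.31 on the log2 scale, which limits what this comparison could detect.

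The second comparison asked what repeated sessions do. On the deposited scale, 27 of the 42 tested members were higher after 6 daily sessions than in Control, and none was lower, at an adjusted p under 0.05 in limma's test. After quantile normalization 1 of the 42 rose, Rpl21, beside 1038 of all 11287 genes tested. The 27 were 17 of 28 large subunit and 10 of 14 small subunit genes. The median log2 fold change was 1.13, or 2.19-fold, on the deposited scale, and −0.027 after quantile normalization. Over all genes tested, 9.36% rose and 14.9% fell on the deposited scale. The groups did not overlap for 28 members, all with 6XIMO above Control, against 14.9% of all genes in that direction and 26.6% in the other. Relative to the median of all genes tested, the members' median lay 1.36 higher on the deposited scale and after median centring of the arrays, and 0.13 higher after quantile normalization.

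**Figure D2:**
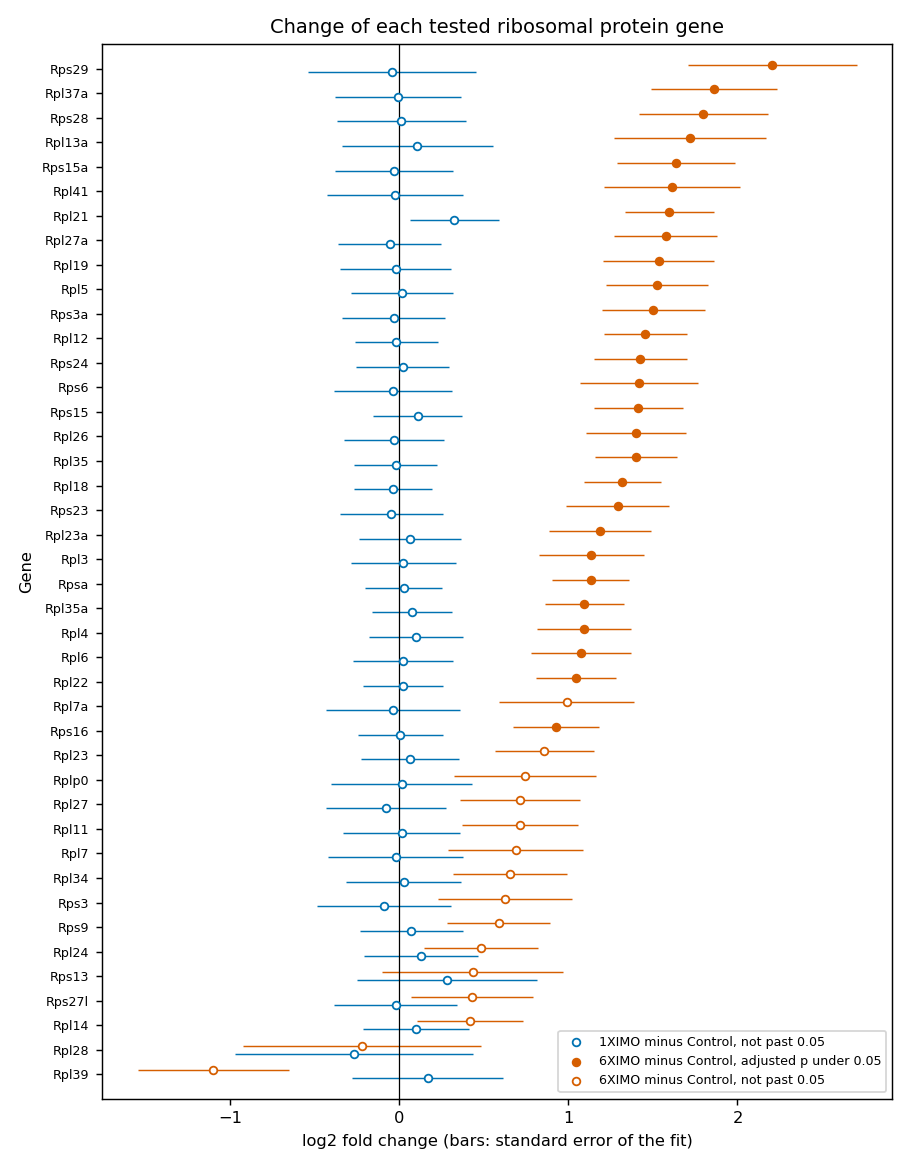
log2 fold change of each of the 42 tested members, with 1XIMO against Control in blue and 6XIMO against Control in orange; bars are the standard error of the fit, and filled points have an adjusted p under 0.05. On the deposited scale the blue points stay near 0, with a median of 0.01, and 27 orange points are filled, with values up to 2.21 for Rps29. After quantile normalization 1 of them, Rpl21, passed, where 1038 of all 11287 genes tested rose.

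The largest rise was that of Rps29, a small zinc-binding protein of the small subunit. It was at 16.14, 15.84 and 15.92 on the Control arrays, at 16.36, 15.90 and 15.51 on the 1XIMO arrays and at 19.40, 17.44 and 17.67 on the 6XIMO arrays. All 6XIMO arrays lay above the other 6, and replicate 1 lay highest. The log2 fold change against Control was 2.21 ± 0.50 (SE, n = 3 per group; adjusted p = 0.0119 in limma), and without 6XIMO replicate 1 it was 1.59. Next came Rpl37a, a zinc-binding protein of the large subunit. It was at 15.76, 15.69 and 15.78 in Control and at 18.45, 17.12 and 17.25 in 6XIMO, a log2 fold change of 1.86 ± 0.37 (SE; adjusted p = 0.00716 in limma) and of 1.44 without 6XIMO replicate 1.

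Rps28, which sits at the exit of the messenger RNA channel, rose by 1.80 ± 0.38 (SE). Rpl13a, a large subunit protein that also acts in the control of inflammatory transcripts, rose by 1.72 ± 0.45. Rpl41, the smallest ribosomal protein, rose by 1.61 ± 0.40. In each of these genes 6XIMO replicate 1 was the highest array, at 18.13 for Rps28, 18.36 for Rpl13a and 18.18 for Rpl41, while replicates 2 and 3 lay between 16.52 and 16.97. Rps15a rose by 1.64 ± 0.35, Rpl21 by 1.60 ± 0.26 and Rpl27a by 1.57 ± 0.30, all on the log2 scale of the deposited values. In the fit without 6XIMO replicate 1 the values were 1.34 for Rps28, 1.15 for Rpl13a and 1.17 for Rpl41, and 1.35 for Rps15a, 1.36 for Rpl21 and 1.42 for Rpl27a; these 6 genes passed in that fit as well. After quantile normalization their changes ended below the threshold, except that of Rpl21, which was 0.77 (adjusted p = 0.028 in limma).

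Rpsa, the small subunit protein also known as the laminin receptor precursor, rose by a similar amount on each 6XIMO array in its brightest probe set. It was at 15.30, 15.18 and 15.27 in Control, at 15.45, 15.37 and 15.003 in 1XIMO and at 16.29, 16.38 and 16.47 in 6XIMO. The 6XIMO arrays lay close together, with an SD of 0.09, and all lay above the other 6. The log2 fold change was 1.13 ± 0.23 (SE, adjusted p = 0.00732 in limma), and 1.18 without 6XIMO replicate 1. It did not pass after quantile normalization. Rps6, the substrate of the S6 kinases through which growth signals mark ribosomes, was at 16.14, 15.67 and 15.79 in Control and at 17.68, 16.86 and 17.30 in 6XIMO. Its rise was 1.42 ± 0.35 (adjusted p = 0.0173 in limma), or 1.22 without replicate 1, and its value after quantile normalization was −0.071.

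Rpl5 and Rpl11 travel together with the 5S ribosomal RNA and, outside the ribosome, bind the p53 inhibitor Mdm2. Rpl5 was at 15.80, 15.59 and 15.65 in Control and at 17.65, 16.88 and 17.08 in 6XIMO, a rise of 1.52 ± 0.30 (SE; adjusted p = 0.00681 in limma), or 1.30 without replicate 1. Rpl11 was at 15.62, 15.38 and 15.42 in Control and at 15.43, 16.55 and 16.57 in 6XIMO. Replicates 2 and 3 lay above every Control array and replicate 1 among them, so that the log2 fold change of 0.71 ± 0.34 did not pass (adjusted p = 0.161 in limma). Without replicate 1 it was 1.09 and passed.

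Rplp0, the stalk protein that binds elongation factors and whose gene is often used as a reference in quantitative PCR, followed the same course. It was at 15.38, 15.22 and 15.25 in Control, at 15.58, 15.22 and 15.09 in 1XIMO and at 14.92, 16.60 and 16.55 in 6XIMO. Replicate 1 lay below every Control array and replicates 2 and 3 above all of them. The log2 fold change was 0.74 ± 0.42 (SE; adjusted p = 0.223 in limma), and without replicate 1 it was 1.29 (adjusted p = 0.000207 in limma). The other stalk genes, Rplp1 and Rplp2, are not members under the rule.

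The members with the highest mean levels rose as well on the deposited scale. They were Rps29, Rps23, Rpl26 and Rpl27a. Rps23, a protein of the decoding centre, was at 16.28, 15.98 and 16.10 in Control and at 17.66, 17.16 and 17.41 in 6XIMO, with a log2 fold change of 1.29, or 1.17 without replicate 1. Rpl26, at the mouth of the tunnel through which the new protein leaves, was at 16.17, 15.88 and 15.92 in Control and at 17.44, 17.27 and 17.47 in 6XIMO, with a log2 fold change of 1.40, or 1.38 without replicate 1. For both genes the sign turned after quantile normalization, to −0.66 for Rps23 and −0.23 for Rpl26. At the other end of the levels, the log2 fold change was 0.43 ± 0.53 for Rps13, −0.22 ± 0.70 for Rpl28 and 0.43 ± 0.36 for Rps27l (SE), with overlapping groups. Without replicate 1 these values were −0.080, 0.17 and 0.12, so that the first and the second turned sign, and none passed in either fit. Rpl30, which was not tested, was at 7.61, 6.68 and 7.11 in Control and at 8.43, 7.65 and 8.92 in 6XIMO.

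Rpl39, whose protein lines the exit tunnel, had a lower mean in 6XIMO than in Control; it was singled out after its values were seen. It was at 11.39, 11.96 and 11.66 in Control, at 11.55, 12.03 and 11.93 in 1XIMO and at 11.70, 9.61 and 10.40 in 6XIMO. Replicates 2 and 3 of 6XIMO lay below all other arrays and replicate 1 lay among them. The log2 fold change was −1.10 ± 0.45 (SE; adjusted p = 0.101 in limma). Without 6XIMO replicate 1 it was −1.67 (adjusted p = 0.000675 in limma), the only fall among the members that passed in that fit. Over all genes tested 30.3% fell there. Its probe set was the brightest of the 6 dim ones and lay far under the band of the 38 bright members.

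The differences of the 38 bright members from Control were wider on 6XIMO replicate 1 than on the other pair of arrays. On replicate 1 their differences from the Control mean ran from −0.38 to 3.43 with an SD over genes of 1.04. As the mean of replicates 2 and 3 they ran from 0.79 to 1.59 with an SD of 0.18. All 38 lay above every Control array on replicates 2 and 3, and 28 did on replicate 1. On replicate 1, 9 members lay below their Control mean: Rps9, Rpl14, Rpl11, Rpl34, Rpl27, Rpl24, Rpl7, Rps3 and Rplp0. The median over the 38 was close on the 3 arrays all the same, at 1.30, 1.17 and 1.35.

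**Figure D3:**
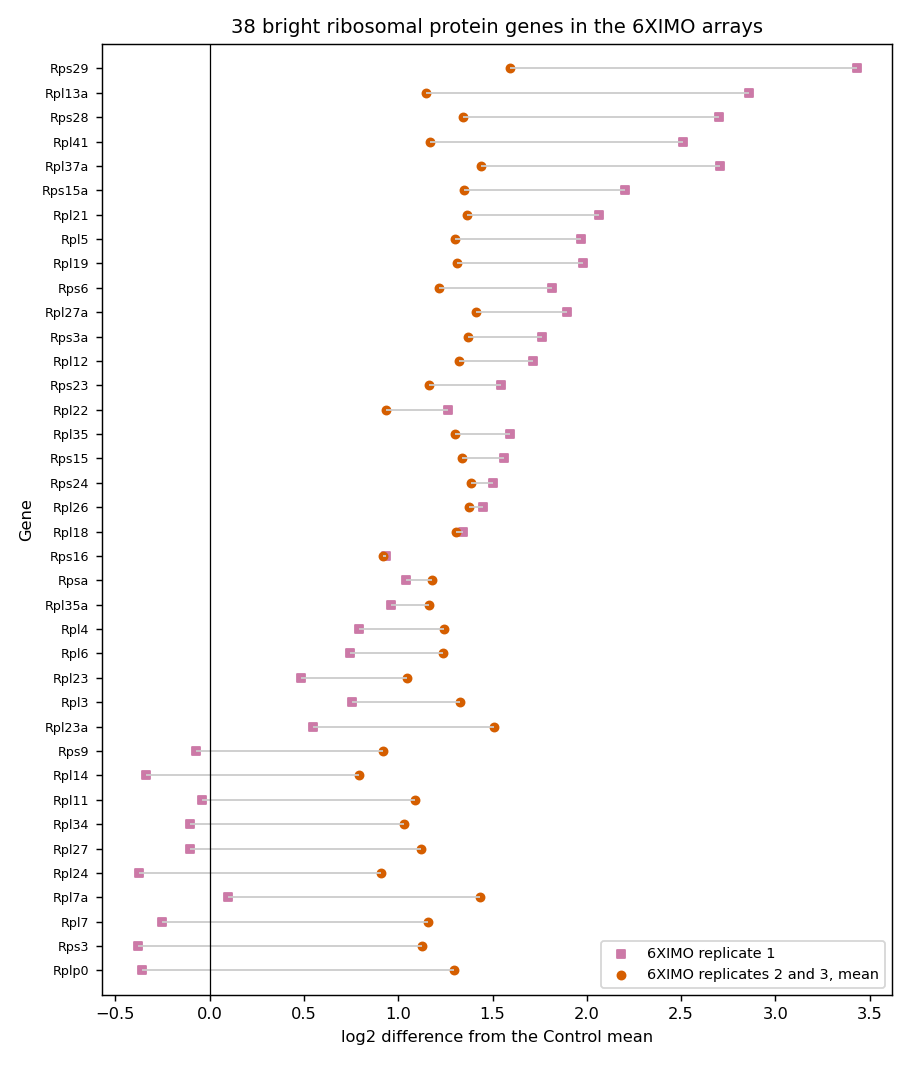
log2 difference from the Control mean of each of the 38 bright members, for 6XIMO replicate 1 (squares) and for the mean of 6XIMO replicates 2 and 3 (circles), on the deposited scale. Replicate 1 runs from −0.38 to 3.43 and the mean of the other pair from 0.79 to 1.59.

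Across the 38 genes the differences on replicates 2 and 3 had a Pearson r of 0.88, and those on replicate 1 against the mean of the other pair had an r of 0.56; the Control mean is common to both sides, genes are not independent replicates, and these are descriptions. Without 6XIMO replicate 1, all 38 bright members passed the test against Control, and the median over the 42 tested members was 1.23. Over all genes, 17.9% rose and 30.3% fell in that fit. The 3′ to 5′ ratio of GAPDH, 5.02 on replicate 1 and 1.79 and 1.87 on the others against at most 1.41 elsewhere, moved with this spread. The array control for 5S ribosomal RNA, which is not a messenger RNA, did so too, at 15.89 on replicate 1 and 11.64 and 12.61 on the others, against 9.97 to 11.45 in Control and 10.37 to 12.40 in 1XIMO; its difference between 6XIMO and Control was 2.48, and 1.23 without replicate 1. The part of either in the members' values was not tested.

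The third comparison set repeated against single stress, which tests whether the 2 responses differ. On the deposited scale 23 of 42 members were higher in 6XIMO than in 1XIMO and none was lower. None rose after quantile normalization, beside 379 of all 11287 genes tested. When the fit held only these 6 arrays, no member passed, and over all genes 0 rose and 3 fell. The 23 were 13 large and 10 small subunit genes, and all 23 were also among the 27 that rose against Control. The median log2 fold change was 1.11, against −0.08 over all genes tested, of which 5.21% rose and 4.63% fell. The groups did not overlap for 28 members, all with 6XIMO above, against 16.1% of all genes in that direction and 17.7% in the other.

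Rps29 led here too, with a log2 fold change of 2.25 (adjusted p = 0.0249 in limma), followed by Rpl37a at 1.87 and Rps28 at 1.78. Rps15a rose by 1.67 and Rpl41 by 1.64. Rpl27a rose by 1.63, Rpl19, a large subunit protein, by 1.55 and Rps3a of the small subunit by 1.54. Rpl13a, at 1.61, missed the threshold (adjusted p = 0.0506 in limma) although its groups did not overlap. These values were lower without 6XIMO replicate 1, at 1.64 for Rps29, 1.45 for Rpl37a and 1.33 for Rps28, and Rpl13a passed at 1.04; over all genes 15.3% rose in that fit. The count rested on single arrays, and so did the count over all genes. It was 38 without 6XIMO replicate 1, beside 1729 risen of all 11287 genes tested. It was 0 without 1XIMO replicate 2 or 1XIMO replicate 3, beside 5 and 0 risen of all genes. It was 14 without 1XIMO replicate 1 or 6XIMO replicate 3, beside 175 and 320. It was 15 without Control replicate 2 or Control replicate 3, beside 295 and 269. The 2 comparisons share the 6XIMO arrays, so that the second is not independent support for the first.

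The rise of the members was also that of other bright probe sets. Among the brightest 1% of genes tested lay 32 members and 81 other genes. The other genes had a median log2 fold change of 1.20 in 6XIMO against Control, and 53 of the 81 (65.4%) rose. Their median without 6XIMO replicate 1 was 1.22, and 79 of the 81 (97.5%) rose, beside all 32 members of that tier. In 1XIMO their median was 0.02. In the brightest twentieth, which held 38 members, the 527 other genes had a median of 0.50 in 6XIMO. Of those 527, 180 (34.2%) rose against Control, beside 27 of the 38 members. The medians of the twentieths below the top 2 lay between −0.42 and −0.07. The median on each array was 1.14, 1.07 and 1.33 on the 6XIMO arrays for the 81 other genes and 1.30, 1.17 and 1.35 for the 38 bright members.

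**Figure D4:**
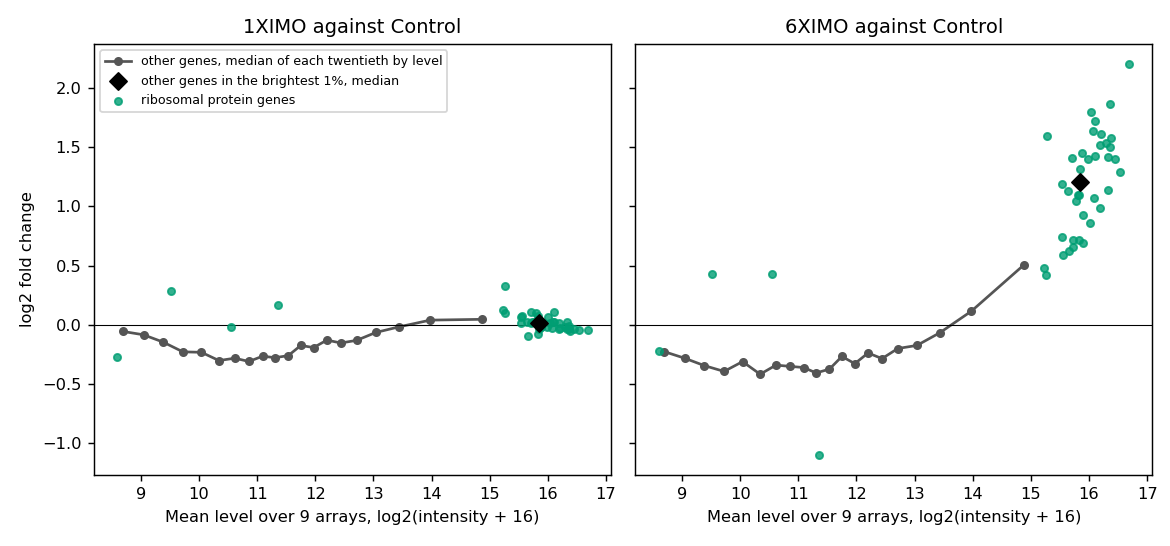
log2 fold change against the mean level over the 9 arrays for the tested ribosomal protein genes (green), the median of the other genes in each twentieth by level (grey line) and the median of the other 81 genes in the brightest 1% (black diamond), on the deposited scale. In 6XIMO against Control the line climbs at high levels, to a median of 0.50 in the brightest twentieth, and the diamond at 1.20 lies among the members. The levels that set these tiers include the 6XIMO arrays.

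The share of the 38 bright members in the summed intensity of an array was 1.92% ± 0.09 in Control, 1.90% ± 0.30 in 1XIMO and 3.93% ± 0.45 in 6XIMO (SD, n = 3). It was 4.42% on 6XIMO replicate 1 and 3.53% and 3.83% on the others. After quantile normalization, which gives every array the same distribution of values, the median difference of the 38 bright members from the Control mean was −0.05, 0.01 and 0.01 on the 6XIMO arrays and −0.29, −0.04 and −0.02 on the 1XIMO arrays. How much of the rise belongs to these genes and how much to the upper end of the 6XIMO intensities cannot be told apart from these values. In such bulk tissue, a change in the share of a cell type and a change in RNA per cell cannot be told apart either.

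**Figure D5:**
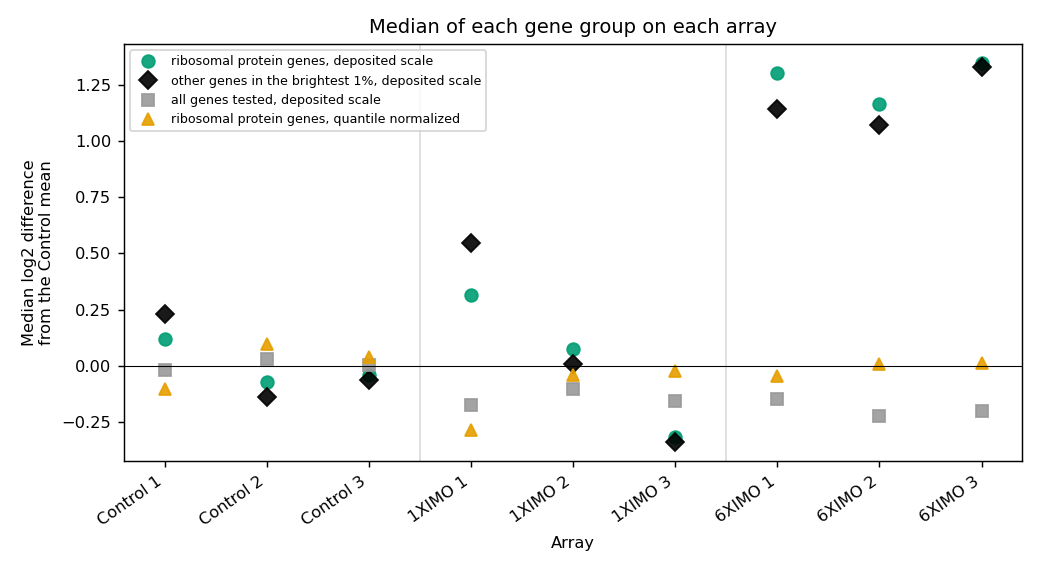
Median log2 difference from the Control mean on each of the 9 arrays, for the 38 bright members and the other 81 genes of the brightest 1% on the deposited scale, for all genes tested, and for the 38 members after quantile normalization. On the 6XIMO arrays the members lie at 1.30, 1.17 and 1.35 on the deposited scale and at −0.05, 0.01 and 0.01 after quantile normalization.

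Second probe sets were available for 5 members and did not always follow the first. For Rpsa the log2 difference of 6XIMO from Control was 2.07 and 0.81 in its other sets, beside 1.13 for the brightest. The set with 2.07, at a mean level of 15.49, was at 17.95, 16.18 and 16.31 on the 6XIMO arrays, highest on replicate 1. For Rps24, a small subunit protein, the difference was 1.43 in the brightest set and −0.85 in the second, at a mean level of 10.83. The second set was at 11.21, 10.77 and 10.99 in Control and from 9.93 to 10.48 in 6XIMO, without overlap. For Rpl3, which lies at the peptidyl transferase centre, it was 1.14 in the brightest set and −0.57 in the second, with the lowest 6XIMO array at 10.20 and the highest at 13.21. For Rpl7 the differences were 0.69 and 1.13, and for Rpl14 0.42 and 1.72, the latter at a mean level of 7.72. The annotation does not say which transcripts these second sets read.

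A further 33 probe sets were annotated to several symbols of which at least 1 was a ribosomal protein, and the rule leaves them out. They covered 27 ribosomal protein symbols that no member carries. Their median log2 difference was 0.02 in 1XIMO and 1.00 in 6XIMO against Control, with a range from −0.62 to 1.82 in the latter. In 6XIMO, 22 of the 33 lay above every Control array, 1 lay below and 10 overlapped. Over all genes tested, 14.9% lay above and 26.6% below without overlap. The median was 1.21 without 6XIMO replicate 1, and 32 lay above and 1 below. Those counts rest on fewer arrays, which separate more easily, and no share over all genes was taken for them.

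Genes that work with the ribosome were followed by lists, whose counts stand beside shares over all genes of 9.36% risen and 14.9% fallen in 6XIMO, and 17.9% and 30.3% without 6XIMO replicate 1. Of 14 tested elongation factors and other transcripts with an oligopyrimidine start, 6 rose (42.9%) and 1 fell in 6XIMO against Control, with a median of 0.82; without replicate 1, 11 rose and 1 fell. Eif3f and Eif3h, subunits of the initiation factor that holds the small subunit, rose by 1.84 and 1.65, Vim by 0.86, and Nap1l1, a histone chaperone, fell by 1.10 on the log2 scale. Without replicate 1 these values were 1.42, 1.34, 0.93 and −0.99. Of 29 initiation factors 5 rose (17.2%) and none fell, with a median of 0.07; without replicate 1, 18 rose and none fell, with a median of 0.52. Eif5b, which joins the subunits, rose by 2.30 and Eif3k by 1.26, or by 1.71 and 1.12 without replicate 1. In 1XIMO none of the 14 and none of the 29 changed.

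Of 60 tested ribosome biogenesis genes, 18 rose (30%) and 2 fell (3.33%) in 6XIMO, with a median of 0.30; without replicate 1, 27 rose and 7 fell. Rrp1 rose by 1.78, Nop58, a core protein of the particles that methylate ribosomal RNA, by 1.58 and Ebna1bp2 by 1.12, and Emg1 fell by 2.08; without replicate 1 the values were 1.60, 1.37, 1.09 and −1.98. In 1XIMO 4 rose (6.67%) and 2 fell (3.33%), beside 4.2% and 5.31% of all genes, and Ddx10 had the smallest adjusted p, with a fall by 1.22. Of 70 mitochondrial ribosomal protein genes, 12 fell (17.1%) and none rose in 1XIMO, with Mrpl19 lower by a log2 change of −0.90. In 6XIMO 5 rose (7.14%) and 7 fell (10%), shares near or under those of all genes; without replicate 1, 14 rose and 10 fell. The mitochondrial genes, whose proteins build a separate ribosome, had a median of −0.09 in 6XIMO (0.063 without replicate 1), where the cytosolic members had 1.13; the 2 lists also differ in brightness, and the difference between them was not tested.

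A list of 27 genes held the S6 kinases, the mTOR pathway, which sets the translation of the members, and 4 transcription factors of the Myc network (Myc, Mycn, Max and Mnt). In 6XIMO 3 of them rose (11.1%), Mnt among them, and 5 fell (18.5%), shares near those of all genes; without replicate 1, 6 rose and 9 fell. Ddit4, an inhibitor of mTOR complex 1 induced by glucocorticoids, rose by 2.57 in 1XIMO and by 2.29 in 6XIMO, or 2.73 without replicate 1. Sesn1, a sestrin that restrains the same complex, fell by 1.71 in 1XIMO and by 1.38 in 6XIMO, where it was −1.18 without replicate 1. Eif4ebp1, the repressor of cap-dependent translation, fell by 1.10 in 1XIMO. Rictor, a subunit of mTOR complex 2, fell by 1.90 and Pdcd4 by 1.27 in 6XIMO, where the values were −1.72 and −1.15 without replicate 1. In 1XIMO 1 gene rose (3.7%) and 2 fell (7.41%), near the 4.2% and 5.31% of all genes.

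Cell type markers moved beside the members. In 6XIMO against Control, 4 of 7 tested chromaffin markers and 6 of 8 adrenal cortex markers rose and none fell. Without replicate 1, 5 and 6 rose. Over all genes tested, 9.36% rose and 14.9% fell, and 17.9% and 30.3% without replicate 1. The mean level of the chromaffin list was 15.17 to 15.77 on the Control arrays and 16.44 to 16.82 on the 6XIMO arrays, and that of the cortex list was 15.09 to 15.54 and 16.45 to 16.98. Chgb, a granin of the secretory granule, rose by 2.63 and Star, which carries cholesterol into mitochondria for steroid synthesis, by 2.57, or by 1.98 and 2.13 without replicate 1. The log2 fold changes of the lists ran down to −1.12 for Slc18a1 and −0.15 for Ddc among the chromaffin markers and to −1.15 for Cyp11b1 and −0.01 for Nr5a1 among the cortex markers, none of which passed; without replicate 1 these were 0.043, 0.51, 0.30 and 0.37. Both lists hold bright probe sets like those of the members. None of the markers of glia, endothelium, fibroblasts, leukocytes or erythrocytes rose, and 1 of glia and 1 of endothelium fell. Without replicate 1, 2 of 5 glia, 1 of 5 endothelial, 2 of 5 fibroblast and 1 of 7 leukocyte markers rose. In that fit 1 of glia, 1 of endothelium and 1 of leukocytes fell. The 4 adipocyte markers were too dim to be tested. The part of cell makeup in the members' rise was not tested.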

How the data were processed

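Linear intensities were deposited for 31099 probe sets, 57 of them array controls; per the labels, RNA was extracted with a column kit and the authors had the arrays labelled and run by Affymetrix. The method that summarised and scaled the probes is not given in the sources used here. For arrays, their number limits the precision. Genes were named through the platform annotation. The intensities were transformed as log2(intensity + 16), control and dim probe sets (lowest 30% by mean level) were left out, the brightest single-symbol probe set stood for a gene, and 11287 genes were fitted over all 9 arrays with limma 3.58.1 in R 4.3.3 (lmFit, eBayes with a trend), with Benjamini-Hochberg adjustment over all of them. The script was tested on simulated data. Members and lists were chosen with earlier results of these data known. Named members are the 8 largest rises and falls without overlap per comparison, the 4 highest and 4 lowest levels, Rpsa, Rplp0, Rps6, Rpl5, Rpl11 and the paralogs, members with several probe sets, and up to 4 genes of each other list; Rpl24, Rps3 and Rpl39 were named after their values were seen. Same-numbered Control and 1XIMO arrays deviated together from their group means (correlations over genes 0.51, 0.36 and 0.25). 1XIMO replicate 3, however, correlated slightly better with Control replicate 2 (0.28) than with Control replicate 3. These numbers may pair the arrays, which is not settled. The replicate block changed no member's call between those groups (446 rose and 531 fell over all genes, against 474 and 599). Alternatives were other filters, pseudocounts, normalizations, array weights, the block, fewer groups and each array left out.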

Additional observations from a re-analysis of the deposited data

Results flagged for a closer look

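On the deposited scale the responses to 1 and to 6 sessions differed for 23 of 42 members, tested directly as 6XIMO against 1XIMO in limma. Over all genes tested, 5.21% rose and 4.63% fell. No member passed after quantile normalization, with only these 2 groups in the fit, or without 1XIMO replicate 2 or 1XIMO replicate 3. The 33 ribosomal protein probe sets of several symbols, which the comparisons of the members do not use, were higher in 6XIMO than in Control by a median of 1.00 on the log2 scale, or 1.21 without 6XIMO replicate 1. The array control for 5S ribosomal RNA, outside the genes compared, was higher in 6XIMO than in Control by 2.48 on the log2 scale. Without 6XIMO replicate 1, at 15.89, the difference was 1.23, and of the others, at 11.64 and 12.61, the first lay within the 1XIMO range of 10.37 to 12.40.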

How the results depend on the processing

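For 1XIMO against Control the count of risen members was 0 under all settings but array weights (1, Rpl21), and the count of fallen ones 0 but for 1 (Rps3) with quantile normalization and without 6XIMO replicate 1. Over all genes 1523 rose with array weights, and 2135 fell in the latter setting. For 6XIMO against Control, 27 rose; quantile normalization gave 1, median centring 17, array weights 38, and quantile normalization without 6XIMO replicate 1 gave 2 (Rpl21 and Rpl23a); 1 (Rpl39) fell with array weights and in the last setting. The median of 1.13 became −0.027, 1.31, 1.31 and 0.016 under these settings in turn. Over all genes tested the risen counts were 1057 in the main fit and 1038, 462, 2398 and 1893 under these settings. Leaving out each array gave 16 to 38 risen (16 without Control replicate 2, 17 without Control replicate 3, 38 without 6XIMO replicate 1), 0 to 1 fallen and a median of 1.05 to 1.23. These fits gave 605 to 2016 risen over all genes, with 673, 605 and 2016 in the named fits in turn. For 6XIMO against 1XIMO, 23 rose; quantile normalization gave 0, median centring 4, array weights 39, quantile normalization without 6XIMO replicate 1 gave 2, and only the 2 groups compared gave 0; 1 (Rpl39) fell with array weights and with quantile normalization without 6XIMO replicate 1. Over all genes tested the risen counts were 588 in the main fit and 379, 40, 2518, 1405 and 0 under the settings above in turn. Without a filter on dim probe sets 16 members rose, beside 474 of 14217 genes. The median of 1.11 became 0.073 with quantile normalization, 1.32 with array weights and 0.10 with both quantile normalization and 6XIMO replicate 1 left out. Leaving out each array gave 0 to 38 risen, 0 to 1 fallen and a median of 0.95 to 1.24. These fits gave 0 to 1729 risen over all genes. The weight of 6XIMO replicate 1 under array weights was 0.046. The other filters, pseudocounts and rules for the probe set kept these counts within 1.5 times of the main ones; the cause of the differences was not tested.

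Calls that turned sign did so under quantile normalization. For 6XIMO against Control with all arrays they were Rpl22 (−0.078), Rpl26 (−0.23), Rpl3 (−0.30), Rpl35a (−0.018), Rpl6 (−0.20), Rps16 (−0.26), Rps23 (−0.66), Rps3a (−0.036) and Rps6 (−0.071). Without 6XIMO replicate 1 they were Rpl13a (−0.022), Rpl22 (−0.15), Rpl26 (−0.055), Rpl3 (−0.052), Rpl41 (−0.091), Rpl6 (−0.052), Rps16 (−0.24), Rps23 (−0.32) and Rps6 (−0.085). For 6XIMO against 1XIMO with all arrays they were Rpl22 (−0.019), Rpl26 (−0.14), Rpl35a (−0.020), Rps16 (−0.16) and Rps23 (−0.70), and without 6XIMO replicate 1 Rpl22 (−0.084), Rpl26 (−0.011), Rps16 (−0.16) and Rps23 (−0.31).

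With the replicate number as a block, 25 members rose and 0 fell against Control, and 20 rose and 0 fell against 1XIMO. Over all genes, 1046 rose and 1695 fell against Control, and 468 rose and 475 fell against 1XIMO. Same-numbered arrays of 6XIMO and Control deviated together only weakly (correlations over genes 0.14, 0.06 and 0.16). Among the Control arrays, 6XIMO replicates 1 and 3 correlated best with the one of their own number. 6XIMO replicate 2 correlated best with Control replicate 3 (0.15). Whether the numbers pair these groups is therefore not settled. The scaling also moved the split of all called genes: 1057 rose and 1681 fell in 6XIMO against Control on the deposited scale, 1038 and 948 after quantile normalization, and 462 and 227 after median centring. For 1XIMO against Control the splits were 474 and 599, 459 and 342, and 158 and 67, and for 6XIMO against 1XIMO 588 and 523, 379 and 239, and 40 and 20. Signal over background was not measured; Rpl28, at 8.60, lay just above the dim limit of 8.51, and Rpl30 and Rpl3l lay under it.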
